A study of Mus musculus with 4 samples.

Results

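Expression of 33 genes of glycolysis and the hypoxia response was followed in RAW264.7 cells, an established mouse macrophage-like line. The genes were taken by name from the design of an Agilent mouse array, where Pkm and Ero1a may also stand under the older names Pkm2 and Ero1l. They were read by 56 of its 55681 probes, and the array held 36095 genes or names in all. The 33 members fall by role into glucose entry, hexose phosphate steps, triose phosphate steps, pyruvate and lactate, oxygen sensing and hypoxia-responsive genes.

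The cells, grown in DMEM with FBS, streptomycin and penicillin, carried a stably integrated EmGFP-miR vector for an artificial microRNA and were selected with blasticidin as a bulk culture, not as a clone. The 4 groups were knockdown cells under AEPS, scramble cells under AEPS, knockdown cells in DMEM and scramble cells in DMEM, with 1 array each. The knockdown vector targets Linc-AAM, a long non-coding RNA, with the scramble vector as its control. AEPS, a polysaccharide from Actinidia eriantha roots, was given at 50 µg/mL, and all 4 cultures were kept for 4 h in their medium. The design asks what AEPS does to these cells and whether the knockdown line responds in another way. A search of the probe names found Linc-AAM 0 times, so the level of the target was not analysed here. No label says that a culture was repeated, so p-values cover these 4 arrays alone. The spread behind them is the difference in AEPS response between the lines, which may be technical. It is averaged in part with the spread over all genes, and it is not a spread of repeated cultures.

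The line labels of the deposited files conflict. The authors' deposited value table gives the scramble columns the probe ranks of the scanner arrays labelled knockdown (Spearman rho of 1, against 0.969 with the scanner arrays labelled scramble), and the reverse. The lines are therefore named as the scanner files label them, and line differences have the opposite sign if the value table's labels are right. The mean AEPS difference of the lines is the same with either set of labels. Between 53.4% and 58% of spots were well above background on an array, and 0 spots were saturated. Of the macrophage markers, 8 of 8 were well above background on all 4 arrays, with summed levels of 472 in knockdown and 504 in scramble cells under AEPS, against 606 in knockdown and 627 in scramble cells in DMEM. Csf1r and Lyz2 make up most of the sum and were, like the dimmer Fcgr1, lower under AEPS on both lines. Ptprc, Adgre1, Itgam and Spi1 were higher on both, while Cd68 was lower under AEPS in knockdown and slightly higher in scramble cells. The epithelial markers Epcam, Cdh1 and Krt8 were well above background on 0 of 4 arrays.

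Glycolysis turns glucose into pyruvate in the cytosol, and cells that run it fast export lactate. The hypoxia-inducible factor HIF is held low by oxygen-dependent prolyl hydroxylases and, when stable, binds short DNA elements near many glycolytic and angiogenic genes. Macrophages stimulated with bacterial lipopolysaccharide are known to raise glucose uptake and lactate release, and to accumulate HIF also with oxygen present.

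Promoter windows from RefSeq on GRCm38.p6 were found for 32 of the 33 members, in 46 windows that reach from upstream of a transcript's start to just past it. Ndrg1 is named only. The letters ACGTG or GCGTG, on either strand, are the core of the HIF element, and a CACGTG palindrome counts once on each strand. They were in 37 of the 46 windows (80.4%), against 43.8% of all 32851 windows, and the members' windows were richer in G and C (median 62.8%, against 52.7% in all windows). Among the members called higher under AEPS, 8 of 9 windows from 7 genes held a match. Among those tested and not called, 26 of 34 windows from 22 genes did (76.5%), and some of these windows overlap each other. The median G and C content was 65.3% for the called and 61.8% for those not called. The called window without a match was one of Vegfa, at chr17:46032328-46032627. A match to the NF-kB consensus, searched on both strands, was in 3 of the members' 46 windows (6.52%), against 5.8% of all windows. It was in 1 of the 9 windows of called members, that same Vegfa window, and in 2 of the 34 of those not called. The windows of 4 members that rose under AEPS, all of them with a match, are shown with the matches in capitals. A window of Ldha, which had the most matches and did not pass the test, is shown beside them. A match is a description of these letters and not a binding site.
Slc2a1 promoter, chr4:119108495-119108794, strand +: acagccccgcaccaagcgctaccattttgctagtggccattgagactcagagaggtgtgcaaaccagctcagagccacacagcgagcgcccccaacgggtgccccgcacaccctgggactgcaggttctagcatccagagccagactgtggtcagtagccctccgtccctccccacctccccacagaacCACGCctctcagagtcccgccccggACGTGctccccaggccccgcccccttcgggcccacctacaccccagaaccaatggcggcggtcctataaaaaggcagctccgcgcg
Hk2 promoter, chr6:82774405-82774704, strand -: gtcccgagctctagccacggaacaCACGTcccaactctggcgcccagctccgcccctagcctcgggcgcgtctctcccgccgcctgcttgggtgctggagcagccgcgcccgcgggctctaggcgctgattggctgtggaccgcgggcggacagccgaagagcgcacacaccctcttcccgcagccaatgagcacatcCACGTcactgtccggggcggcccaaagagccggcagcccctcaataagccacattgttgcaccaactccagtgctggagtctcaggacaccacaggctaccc
Slc16a3 promoter, chr11:120948817-120949116, strand +: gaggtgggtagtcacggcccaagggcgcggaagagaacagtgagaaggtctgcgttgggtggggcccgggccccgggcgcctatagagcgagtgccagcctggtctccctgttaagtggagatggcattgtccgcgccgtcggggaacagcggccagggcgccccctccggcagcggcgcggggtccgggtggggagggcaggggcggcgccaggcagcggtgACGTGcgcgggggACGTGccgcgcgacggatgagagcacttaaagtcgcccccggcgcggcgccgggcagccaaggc
Ero1a promoter, chr14:45318523-45318822, strand -: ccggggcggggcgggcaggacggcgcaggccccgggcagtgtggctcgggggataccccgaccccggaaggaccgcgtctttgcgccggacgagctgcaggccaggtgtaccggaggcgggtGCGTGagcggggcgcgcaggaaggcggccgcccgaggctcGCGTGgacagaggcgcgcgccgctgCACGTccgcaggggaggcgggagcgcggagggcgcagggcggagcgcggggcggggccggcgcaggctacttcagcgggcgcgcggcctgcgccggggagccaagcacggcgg
Ldha promoter, chr7:46845554-46845853, strand +: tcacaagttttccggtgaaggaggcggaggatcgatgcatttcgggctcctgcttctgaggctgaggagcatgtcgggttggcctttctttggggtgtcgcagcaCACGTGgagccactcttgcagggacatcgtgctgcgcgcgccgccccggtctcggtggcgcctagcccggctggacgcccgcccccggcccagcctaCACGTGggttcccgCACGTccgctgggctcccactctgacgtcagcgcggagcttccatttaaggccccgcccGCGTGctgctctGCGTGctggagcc

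Under AEPS 8 of the 30 members that could be tested rose and 0 fell. They were Ndrg1, Vegfa, Adm, Slc2a1, Hk2, Ero1a, Pfkfb3 and Slc16a3, with increases between 1.69-fold and 9.94-fold. They included the main glucose transporter, an inducible hexokinase, an activator of phosphofructokinase and a lactate exporter, while the enzymes between aldolase and lactate dehydrogenase differed by at most 1.32-fold. The call is an adjusted p under 0.05 in limma, from a model of line and treatment over 22348 genes, with the knockdown and scramble arrays as the repeats. In the same fit 7.36% of all genes were called higher and 7.18% lower. At an unadjusted p under 0.05, 11 members were higher and 2 lower, and 33.9% of all genes passed that threshold in either direction. The median AEPS difference was 0.23 on the log2 scale for the 30 members and 0.07 for all genes tested. The model has 1 residual degree of freedom, so a member whose response differs between the lines is less easily called. Levels are given below as scaled intensity, the processed intensity divided by the array's 75th percentile. They may be set between arrays for a probe, but not between probes. Where the media are said below not to overlap, the share of all genes without overlap is not given here. Members that were not called, such as Pfkl and Eno2, did not overlap either.

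**Figure D1:**
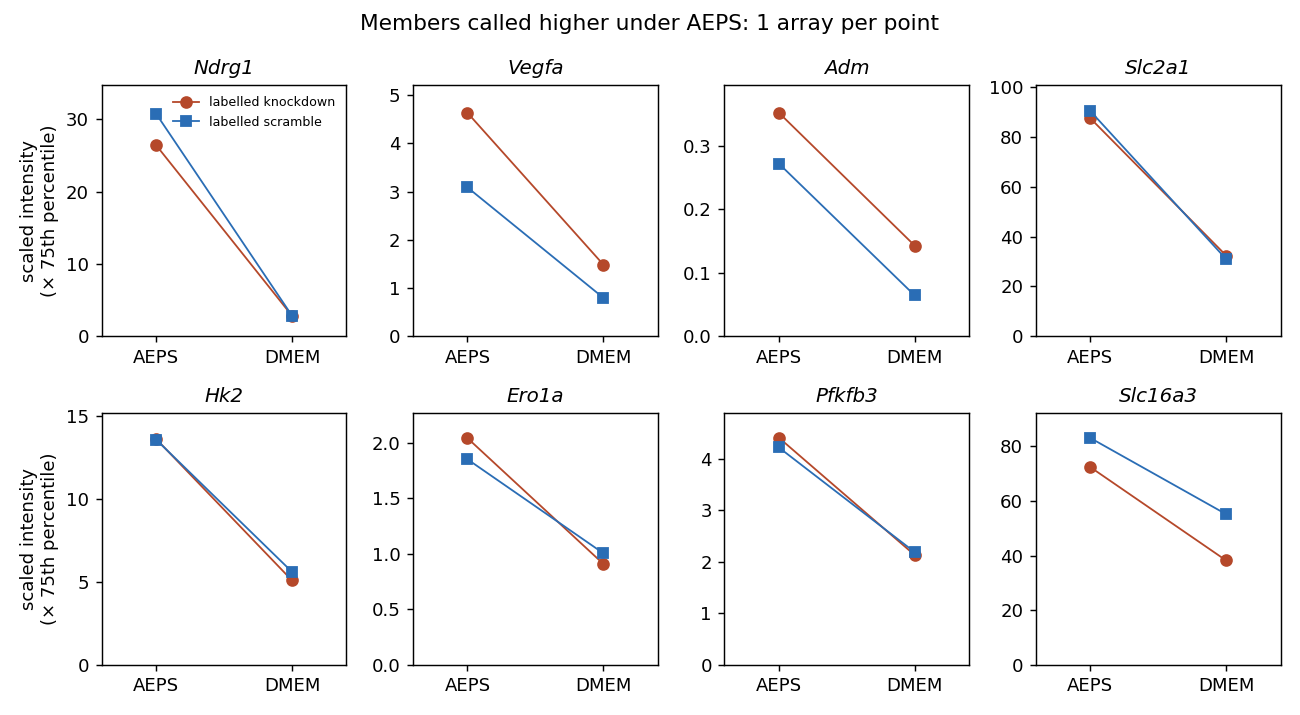
Scaled intensity (y axis, multiples of the array's 75th percentile, starting at 0) of the 8 members called higher under AEPS, for AEPS and DMEM (x axis) on the arrays labelled knockdown and scramble, 1 array per point and no error bars. For each of the 8 genes both AEPS arrays lie above both DMEM arrays, as for Ndrg1 with 26.4 and 30.8 under AEPS against 2.86 and 2.87 in DMEM. The 8 genes were picked by a test on these same arrays, so the separation is no further evidence. Pfkl and Eno2, which were not called, were separated too, and the share of all genes is not given.

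Glucose entry held 4 members, of which 2 rose. Slc2a1, the main basal glucose transporter, read by a probe at mm9 chr4:118809864-118809923, had 87.4 in knockdown and 90.3 in scramble cells under AEPS, against 32.4 in knockdown and 31.0 in scramble cells in DMEM. Both AEPS arrays stood far above both DMEM arrays, and the lines were close in each medium. On the log2 scale the AEPS difference was 1.49 ± 0.12 (SE, limma, adjusted p = 0.0125). Hk2, the inducible hexokinase that binds mitochondria (probe at mm9 chr6:82675056-82675115), had 13.6 in both lines under AEPS, against 5.09 in knockdown and 5.61 in scramble cells in DMEM. Its AEPS arrays did not overlap its DMEM arrays, and the difference was 1.35 ± 0.12 (SE, limma, adjusted p = 0.0145). Hk3, a hexokinase of myeloid cells, had 2.53 in knockdown and 2.14 in scramble cells under AEPS, against 3.77 in knockdown and 2.09 in scramble cells in DMEM. Its groups overlapped, since only the knockdown array in DMEM stood apart, and its AEPS difference of -0.27 had an adjusted p of 0.382 in limma.

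Hk1, the broadly expressed hexokinase, was read differently by its 3 probes. They lie close together on chromosome 10 of mm9. Their opening bases are shown to tell the probes apart, and no base is marked.
Hk1 probe 1, chr10:61731230-61731288: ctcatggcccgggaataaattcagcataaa
Hk1 probe 2, chr10:61731856-61731915: ggaatctcccatcgctttagtgagccattg
Hk1 probe 3, chr10:61732717-61732776: aaggaactgtcaccaaagtgtaccgtgtcc
The brightest, probe 1, had 355 in knockdown and 373 in scramble cells under AEPS, against 337 in knockdown and 324 in scramble cells in DMEM, a difference of 0.14 that did not pass the test (limma, adjusted p = 0.453). Probe 2 had 22.1 in knockdown and 22.7 in scramble cells under AEPS, against 35.7 in knockdown and 44.0 in scramble cells in DMEM. Its AEPS arrays lay below its DMEM arrays on both lines. In a limma fit with each probe as its own feature, chosen after these data were seen, probe 2 fell by 0.82 ± 0.14 in log2 units (SE, adjusted p = 0.0401). In that fit 6.78% of all probes were called higher and 6.71% lower. Probe 3 had 0.397 in knockdown and 0.427 in scramble cells under AEPS, against 1.201 in knockdown and 0.685 in scramble cells in DMEM, a difference of -1.14 with an adjusted p of 0.0707 in the same fit. The range of 1.28 between the probes' differences was the widest among the 13 members with 2 or more probes, and the other 12 spanned 0.02 to 0.44. With the mean of the 3 probes in place of the brightest, Hk1 differed by -0.61 (limma, adjusted p = 0.065). Which transcripts each probe reads was not tested.

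**Figure D2:**
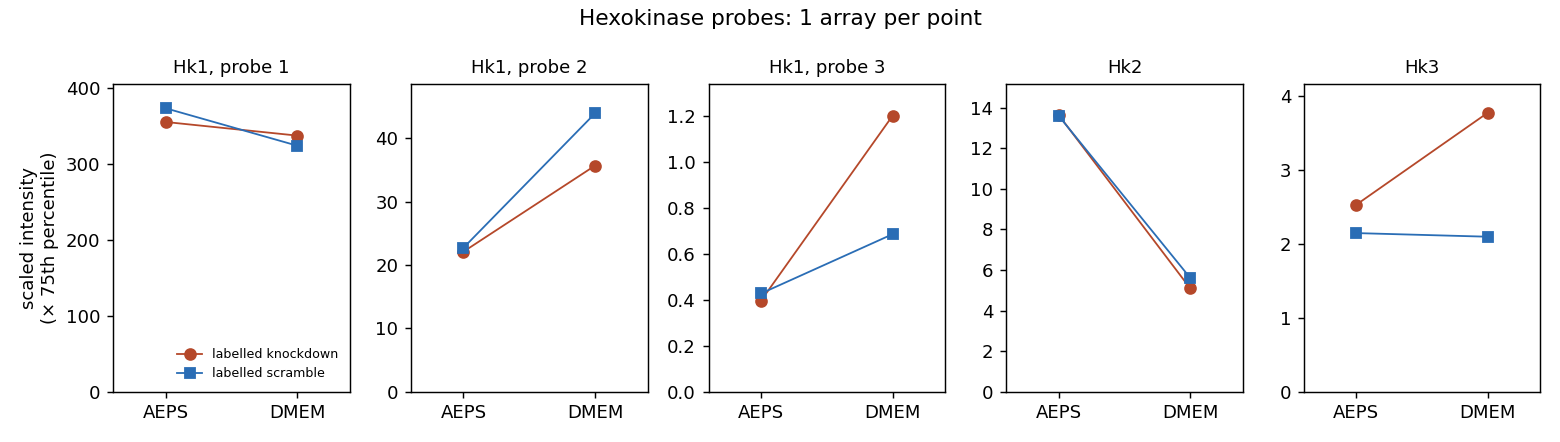
Scaled intensity (y axis, multiples of the array's 75th percentile, starting at 0) of the 3 Hk1 probes and the Hk2 and Hk3 probes under AEPS and in DMEM (x axis) for both lines, 1 array per point. Hk2 is higher under AEPS on both lines and Hk1 probe 2 lower, at 22.1 and 22.7 under AEPS against 35.7 and 44.0 in DMEM, while Hk1 probe 1 stays between 324 and 373.

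Of the 7 members that handle hexose phosphates, 1 rose. Pfkfb3, whose enzyme makes a strong activator of phosphofructokinase, had 4.41 in knockdown and 4.22 in scramble cells under AEPS, against 2.13 in knockdown and 2.18 in scramble cells in DMEM. The media did not overlap and the lines were close, with an AEPS difference of 1.0 ± 0.12 (SE, limma, adjusted p = 0.0222). Its brightest probe lies at mm9 chr2:11393453-11393512. A dimmer probe that spans mm9 chr2:11404189-11405602 differed by 0.85 in the same direction, with an adjusted p of 0.095 in the limma fit by probe.

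The 3 phosphofructokinase genes, for the committed step that Pfkfb3 regulates, did not pass the test and did not share a direction. Pfkl, the liver type, had 5.36 in knockdown and 4.80 in scramble cells under AEPS, against 4.47 in knockdown and 3.65 in scramble cells in DMEM, a difference of 0.33 (limma, adjusted p = 0.152). Pfkm, the muscle type, was read by 10 spots on each array, whose SD was between 0.04 and 0.06 on the log2 scale. It had 1.81 in knockdown and 1.44 in scramble cells under AEPS, against 2.27 in knockdown and 1.85 in scramble cells in DMEM, a difference of -0.34 (limma, adjusted p = 0.132). Both AEPS arrays of Pfkm lay below both DMEM arrays. Pfkp, the platelet type, had 5.15 in knockdown and 5.60 in scramble cells under AEPS, against 4.95 in knockdown and 3.63 in scramble cells in DMEM. Its AEPS difference was 0.06 on the arrays labelled knockdown and 0.62 on those labelled scramble. Gpi1, the isomerase, and the aldolases Aldoa and Aldoc had limma differences between -0.06 and 0.07 on the log2 scale. Aldoa, the main aldolase, had 623 in knockdown and 618 in scramble cells under AEPS, against 617 in knockdown and 565 in scramble cells in DMEM.

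Of the 7 members between triose phosphate and pyruvate, limma called 0, and at an unadjusted p under 0.05, which 33.9% of all genes met, there was 1, Eno2. Gapdh, the dehydrogenase often used as a loading control, had 686 in knockdown and 720 in scramble cells under AEPS, against 671 in knockdown and 644 in scramble cells in DMEM, a difference of 0.10. Its 8 probes differed by -0.17 to 0.13. The files place one of them on chromosome 7 and another on chromosome 8, while RefSeq has the gene on 6, so reads of near-identical copies are not separated. The same holds for Pgk1, a kinase that makes ATP, whose probe is placed on chromosome 3 while the gene is on X. Pgk1 had 208 in knockdown and 237 in scramble cells under AEPS, against 177 in knockdown and 195 in scramble cells in DMEM, a difference of 0.26. Eno1, the main enolase, had 393 in knockdown and 414 in scramble cells under AEPS, against 349 in knockdown and 366 in scramble cells in DMEM, a difference of 0.17. Both genes, and the mutase gene Pgam1 at 0.20, had AEPS arrays above both DMEM arrays, and the 3 passed only when limma used an intensity trend. With quantile normalization their differences were below 0, at -0.03 for Pgk1, -0.06 for Eno1 and -0.08 for Pgam1. Tpi1, the isomerase, differed by -0.07. Its dimmer probe differed by -0.39, with -0.70 on the arrays labelled knockdown and -0.09 on those labelled scramble (adjusted p = 0.251 in the limma fit by probe). Eno2, the neuronal enolase, had 1.33 in knockdown and 1.34 in scramble cells under AEPS, against 1.06 in knockdown and 0.964 in scramble cells in DMEM, a difference of 0.40 (limma, adjusted p = 0.112). The pyruvate kinase gene Pkm had 240 in knockdown and 204 in scramble cells under AEPS, against 278 in knockdown and 212 in scramble cells in DMEM, a difference of -0.14. Which of its splice forms the probe reads was not tested.

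Of the 4 members for pyruvate and lactate, 1 rose. Slc16a3, a transporter that exports lactate (probe at mm9 chr11:120820023-120820082), had 72.4 in knockdown and 83.1 in scramble cells under AEPS, against 38.2 in knockdown and 55.2 in scramble cells in DMEM. The media did not overlap, and the scramble array was the higher in each. The difference was 0.76 ± 0.14 (SE, limma, adjusted p = 0.0487), and it missed the threshold under 5 of the other settings. Its other probe overlaps this one by position and differed by 0.74. Slc16a1, a lactate transporter that runs in both directions, differed by 0.28 (limma, adjusted p = 0.245). Ldha, which makes lactate from pyruvate, had 535 in knockdown and 584 in scramble cells under AEPS, against 543 in knockdown and 529 in scramble cells in DMEM. Its arrays overlapped, and the difference was 0.06. Pdk1, a kinase that keeps pyruvate out of the mitochondrial cycle, had 1.65 in knockdown and 1.53 in scramble cells under AEPS, against 2.38 in knockdown and 2.70 in scramble cells in DMEM. Both AEPS arrays were below both DMEM arrays. The difference of -0.68 ± 0.13 just missed the threshold (SE, limma, adjusted p = 0.0541) and passed it under 6 other settings.

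Oxygen sensing could be tested for 1 of its 3 members. Hif1a, the oxygen-regulated HIF subunit, had 5.97 in knockdown and 6.51 in scramble cells under AEPS, against 3.88 in knockdown and 4.75 in scramble cells in DMEM. The media did not overlap, and the difference was 0.54 ± 0.12 (SE, limma, adjusted p = 0.0662). A dim probe, well above background on 2 arrays, differed by 0.10, with -0.19 on the arrays labelled knockdown and 0.39 on those labelled scramble. The mean of both probes differed by 0.32 (limma, adjusted p = 0.184). The array reads its RNA, while HIF is mainly regulated as a protein. Egln1 and Egln3, the hydroxylases that mark HIF for degradation, were near background. Egln1 was well above background only on the scramble array in DMEM and Egln3 on 0 arrays.

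Of the 8 hypoxia-responsive genes, 7 were tested and 4 rose. Ndrg1, a stress-response gene known as a hypoxia marker (probe at mm9 chr15:66761057-66761116), had 26.4 in knockdown and 30.8 in scramble cells under AEPS, against 2.86 in knockdown and 2.87 in scramble cells in DMEM. Its DMEM arrays were nearly equal, and its AEPS difference of 3.31 ± 0.13 was the largest among the 30 members tested (SE, limma, adjusted p = 0.00746). Vegfa, the angiogenic growth factor, had 4.64 in knockdown and 3.09 in scramble cells under AEPS, against 1.49 in knockdown and 0.80 in scramble cells in DMEM. The media did not overlap, and the array labelled knockdown was the higher in each. The difference was 1.79 ± 0.14 (SE, limma, adjusted p = 0.0123). Its probes lie at mm9 chr17:46154387-46154446 and chr17:46162376-46162435, and the dimmer one differed by 1.94.

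Adm, which encodes the vasodilator peptide adrenomedullin (probe at mm9 chr7:117773088-117773147), had 0.352 in knockdown and 0.272 in scramble cells under AEPS, against 0.143 in knockdown and 0.0645 in scramble cells in DMEM. Its intensity lay below the 75th percentile on all 4 arrays, and its media did not overlap. The difference was 1.69 ± 0.23 (SE, limma, adjusted p = 0.0278), and 0.98 with the normexp background (adjusted p = 0.00341). Ero1a, an oxidase of the endoplasmic reticulum (probe at mm9 chr14:45904192-45904251), had 2.04 in knockdown and 1.85 in scramble cells under AEPS, against 0.909 in knockdown and 1.01 in scramble cells in DMEM. Its difference was 1.03 ± 0.13 (SE, limma, adjusted p = 0.0265).

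Bnip3, P4ha1 and Ankrd37 did not pass the test. Bnip3, a receptor for the removal of mitochondria and a classical HIF target, had 19.7 in knockdown and 18.03 in scramble cells under AEPS, against 15.3 in knockdown and 17.4 in scramble cells in DMEM. The groups did not overlap, yet the scramble arrays were close, and the difference was 0.21 (limma, adjusted p = 0.35). P4ha1, a collagen prolyl hydroxylase, had 1.26 in knockdown and 1.35 in scramble cells under AEPS, against 1.01 in knockdown and 0.975 in scramble cells in DMEM. It differed by 0.39 (limma, adjusted p = 0.116), and both of its probes ran the same way. Ankrd37, a HIF target of unclear function, had 2.87 in knockdown and 2.12 in scramble cells under AEPS, against 2.92 in knockdown and 2.67 in scramble cells in DMEM, a difference of -0.18 with overlapping arrays. P4ha2, the sister hydroxylase, was well above background only on the scramble array under AEPS, where its single spot stood at least 2.33-fold above the DMEM array of that line.

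**Figure D3:**
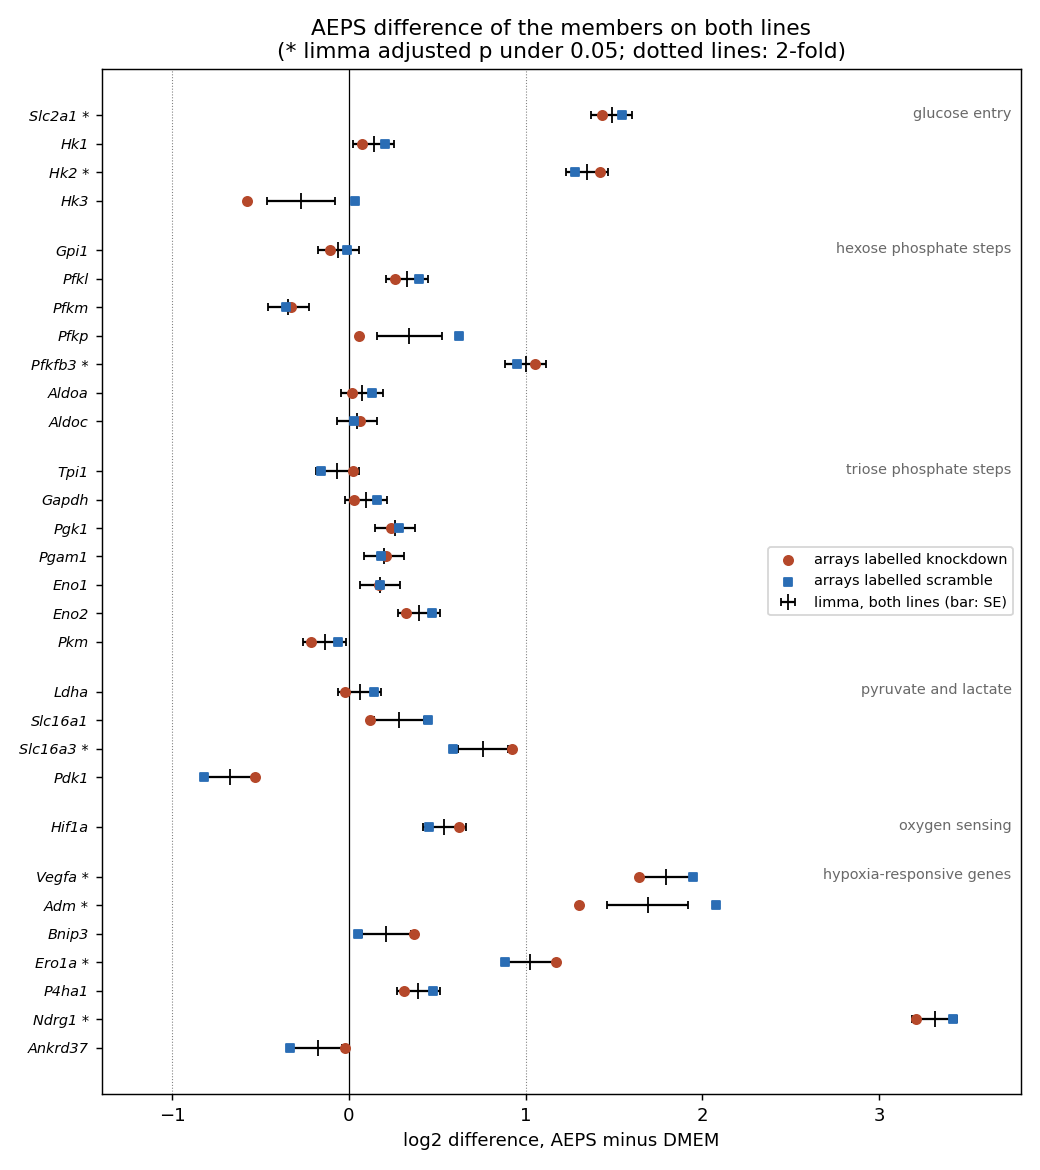
AEPS minus DMEM on the log2 scale (x axis) for the 30 members on all 4 arrays, grouped by role, with the arrays labelled knockdown (circles) and scramble (squares) and the limma estimate with its SE (black bars). The 8 genes with an asterisk have a limma adjusted p under 0.05, all to the right of 0, with Ndrg1 at 3.31 and the triose phosphate members between -0.14 and 0.40.

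Line by line, 22 of the 30 members on all 4 arrays were higher under AEPS on both lines, 5 were lower on both and 3 had opposite signs. These signs depend on the scaling for members with small differences. With each array centred on its median 18 were higher and 9 lower on both lines, and with quantile normalization 14 were higher and 13 lower. The share of all genes with each sign is not given here, so these counts have no background beside them. Under the main scaling the median AEPS difference of all genes was 0.05 on the arrays labelled knockdown and 0.07 on those labelled scramble. A 2-fold increase was reached by 7 members on the arrays labelled knockdown, where 4.64% of all genes were called higher, and by 6 members on the arrays labelled scramble, where 7.32% were. Shared by both lines were Ndrg1, Vegfa, Adm, Slc2a1 and Hk2, a total of 5. Ero1a and Pfkfb3 passed 2-fold on the arrays labelled knockdown, at 1.17 and 1.05 on the log2 scale, and fell short on those labelled scramble, at 0.88 and 0.95. P4ha2 passed only through its bound on the scramble line. A decrease of 2-fold was met by 0 members on either line, where 3.5% of genes on the knockdown line and 5.25% on the scramble line were called lower.

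The difference in response between the lines reached 1 on the log2 scale in 0 of the 30 members, against 0.541% of genes above and 1.63% below. It has no residual and so no test. Of the 8 members called, 4 had the larger response on the arrays labelled knockdown and 4 on those labelled scramble, with a median difference of -0.01. The largest in size was that of Adm at -0.78, whose response was 1.30 on the arrays labelled knockdown and 2.08 on those labelled scramble. It was followed by Hk3 at -0.61 and Pfkp at -0.57.

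The line difference asks which members differ between the lines, over both media. Each vector has a single bulk-selected line, so its effect cannot be told apart from other differences between the lines. By limma it was called for 0 of the 30 members, against 0.389% of all genes higher and 0.331% lower. At an unadjusted p under 0.05 it held for 2 members, Adm and Vegfa, and for 14.5% of all genes. Vegfa was higher on the arrays labelled knockdown by 0.59 under AEPS and by 0.90 in DMEM on the log2 scale, with a limma mean of 0.74 ± 0.14 (SE, adjusted p = 0.164). Its dimmer probe differed by 0.78. The sign held in both media, and the call was made under 3 other settings. Adm was higher by 0.37 under AEPS and by 1.15 in DMEM, with a limma mean of 0.76 ± 0.23 (SE, adjusted p = 0.292).

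Within a medium, 0 members differed 2-fold between the lines under AEPS, against 1.86% of genes higher and 2.7% lower. In DMEM 1 member did, Adm, against 2.63% of genes higher and 1.54% lower. Vegfa came next at 0.90 and Hk3 after it at 0.85, with Hk3 at 0.24 under AEPS. Slc16a3 was lower on the arrays labelled knockdown in both media, at -0.20 under AEPS and -0.53 in DMEM. In both media 12 of the 30 members were higher and 6 lower in the line labelled knockdown, and the median limma line difference was 0.01. With median centring 11 were higher and 11 lower, and with quantile normalization 15 and 5. The share of all genes with these signs is not given here either.

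**Figure D4:**
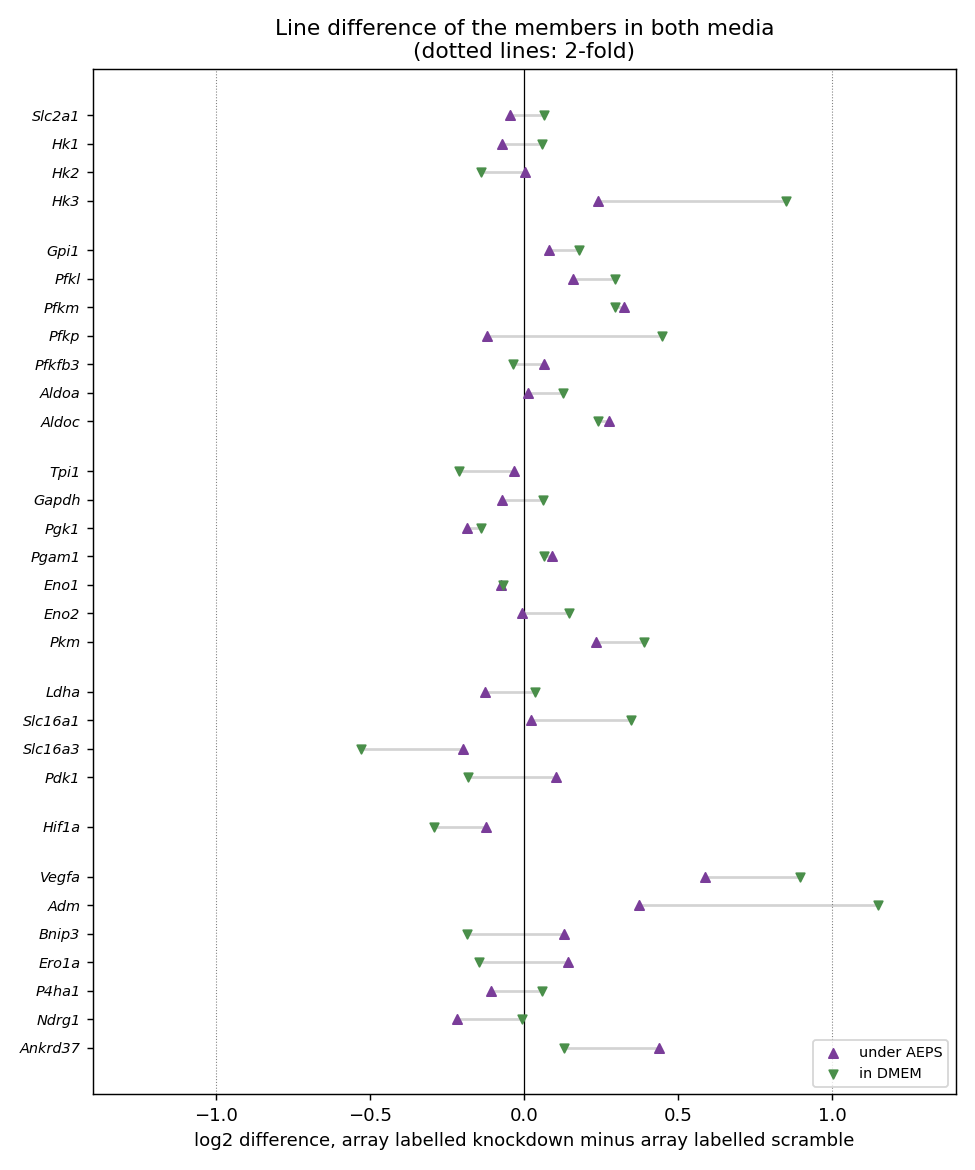
Difference between the lines on the log2 scale (x axis, array labelled knockdown minus array labelled scramble) for the 30 members, under AEPS and in DMEM, 1 pair of arrays per point and no error bars. Most members lie near 0, while Vegfa lies at 0.59 and 0.90 and Adm at 0.37 and 1.15.

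Genes of neighbouring pathways, from lists chosen with earlier results known, were counted in the same fit, where 7.36% of all genes were called higher and 7.18% lower. Of 26 other glycolysis and pyruvate genes, 19 were tested, of which 2 rose and 3 fell, with a median of -0.15. Slc2a6, a glucose transporter of the lysosome, had 22.5 in knockdown and 60.3 in scramble cells under AEPS, against 8.40 in knockdown and 21.0 in scramble cells in DMEM, and rose by 1.47 (limma, adjusted p = 0.0126). Tigar, a phosphatase that opposes glycolysis, rose by 0.93. Slc16a7, another monocarboxylate transporter, had 0.211 in knockdown and 0.152 in scramble cells under AEPS, against 0.501 in knockdown and 0.436 in scramble cells in DMEM, a difference of -1.39 (limma, adjusted p = 0.0167). Slc2a8, an intracellular glucose transporter, and Bpgm, an enzyme of the bisphosphoglycerate shunt, differed by -1.12 and -0.90, and both were called lower.

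Of 8 pentose phosphate genes limma called 0, with a median of -0.10, and at an unadjusted p under 0.05, met by 33.9% of all genes, there were 1 higher and 1 lower. Of 18 citric acid cycle genes it called 0, with a median of -0.02, and at the unadjusted p 1 was higher and 0 lower. Of 12 HIF pathway regulators, 11 were tested and 0 called, with 1 higher and 1 lower at the unadjusted p. Cited2, which competes with HIF for its coactivator, had the largest difference of that list at 0.90 (limma, adjusted p = 0.0516). Of 32 other known HIF targets, 24 were tested, of which 2 rose and 0 fell. The share that rose is near the 7.36% of all genes called higher. Bhlhe40, a transcriptional repressor, rose by 0.76 (limma, adjusted p = 0.0326). The median of the 24 was 0.11, against 0.07 for all genes, and 1.03 for the 7 tested hypoxia-responsive members.

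Markers of other cell types were checked beside these results. The fibroblast markers Col1a1, Col1a2 and Pdgfra summed to 0.206 in knockdown and 0.268 in scramble cells under AEPS, against 0.104 in knockdown and 0.111 in scramble cells in DMEM, with Pdgfra not well above background on any array. The endothelial markers summed to 11.9 in knockdown and 11.5 in scramble cells under AEPS, against 11 in knockdown and 9.56 in scramble cells in DMEM, through Kdr alone, while Cdh5 and Tek were not well above background. The T cell markers summed to 2.05 in knockdown and 1.82 in scramble cells under AEPS, against 1.89 in knockdown and 1.47 in scramble cells in DMEM, through Cd3e, and the B cell markers stayed between 0.153 and 0.216. Their part in the members' differences was not tested. Each marker sum, also that of the macrophage markers, adds probes of unlike brightness and is no measure of how much of a cell type is present. In bulk RNA, fewer cells with a transcript and less of it per cell cannot be told apart.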

How the data were processed

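The deposited scanner files hold spot intensity on a linear scale from Agilent Feature Extraction (version 10.7.1.1, per the file headers; the tool is also named in the submitters' processing notes), background-subtracted within each array and not scaled between arrays. The authors' deposited value table holds log2 values whose making the sources used here do not state, and it served as an alternative. The deposited files also carry other marks, for outlier spots and for spots well above background. Probe positions are those of the files, for mm9. Probe names were updated through RefSeq for 26582 probes by accession and for 2602 by symbol, with a synonym used for 492 and the design's name kept for 26005.

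From log2 intensity the 75th percentile of the array's 59305 non-control spots was subtracted, and replicate spots were averaged without outlier spots. A probe with only outlier spots on an array kept them there. A gene took its brightest probe. limma 3.58.1 (R 4.3.3) fitted line and treatment to 22348 genes well above background on 2 or more of 4 arrays (lmFit and eBayes, Benjamini-Hochberg, threshold 0.05), with 1 residual and 2.8 prior degrees of freedom and a prior SD of 0.132. The fit was also run on data simulated from its own prior, without a difference in response between the lines. Such a run checks the code and not the model's assumptions. Pairs of arrays have no test and were called at 2-fold. A gene well above background on 1 of a pair of arrays has a bound: the bright value over the dim value or, if higher, the dimmest signal that passed the background mark there. With 1 array per group, precision is limited by the number of arrays. Probes printed 10 times had a median SD of 0.04 to 0.05 log2 units between spots. Every member is named, and of each other list the 4 genes with the largest difference among those past limma, or all where fewer passed, except 1 gene that is not reported here; Bpgm and Cited2 were added after their values were seen. The members and all lists were chosen with earlier results of these data known. Other backgrounds, scalings, probe rules, filters, models and fold thresholds were tried.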

Additional observations from a re-analysis of the deposited data

How the results depend on the processing

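Each alternative changed 1 choice. The limma count of 8 members called for AEPS was between 8 and 10 under the normexp background, quantile normalization, centring on the array's median, the mean of all probes, the value table, a filter on all 4 arrays and each probe as its own feature, which was added after seeing the data. It was 1 with no filter on dim genes (36095 genes tested, Ndrg1 alone), 13 with an intensity trend (12 higher and 1 lower) and 5 with treatment alone in the model. Slc16a3 was not called under quantile normalization, the value table, no filter, treatment alone and each probe as its own feature, where Hk1 was called lower through probe 2. Pdk1 was called lower under 6 settings and Hif1a called higher under 3. Vegfa and Adm lost the call without line in the model. The line count of 0 was 1 under normexp and under median centring and 2 with the trend. At 1.5-fold, 11 members were called for AEPS on the arrays labelled scramble (10 higher and 1 lower, against 13.2% and 12% of all genes). For the line, 3 were called higher in DMEM (5.96% of all genes) and 1 under AEPS (5.56%), and with normexp 0 in DMEM. The AEPS difference of Adm was 0.98 with normexp, and that of Hk1 -0.61 with the mean of all probes. Over all genes, the share called for AEPS ranged between 0.823% with no filter and 29.8% with the trend, and the share called for the line between 0% and 5.67%. Centring on the median moved the median AEPS difference of all genes to -0.03, against 0.07. Members near background (Egln1, Egln3 and P4ha2) have no limma value, and the dim Adm rests on 1 spot per array. The causes were not tested. No array could be left out with a test, since 3 arrays leave 0 residual degrees of freedom. No pairing by replicate number was possible because each group holds a single array, so the groups share fewer than 2 replicate numbers. The comparison within each line is already in the limma model, and treatment alone drops it.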
